A study of Ovis aries with 14 samples.

Results

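Triclosan, an antibacterial compound added to soaps and toothpastes, was infused into chronically catheterized fetal sheep in late gestation, and transcripts of the fetal hypothalamus were compared with those of vehicle-infused fetuses. The comparison rests on 8 of the 14 arrays of the series: 4 fetuses given vehicle (fetal vehicle) and 4 given 250 µg of triclosan per day (fetal triclosan), each intravenously for 2 days, with hypothalami taken at around 130 days of fetal age. The other arrays come from an arm in which the ewe was infused (100 µg/kg per day or vehicle) and serve here only beside the direct arm. No strain or genetic change is labelled. Each array stands for 1 fetus per the labels, but whether the fetuses of a group came from separate ewes is not stated by the labels, so every p-value measures only the spread between these samples. Of 15008 probes on the ovine array, 13424 were well above background on at least 3 of the 8 arrays, and these were tested. They cover 850 of the 939 genes that could be named, with the brightest probe standing for each gene.

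The hypothalamus holds neuroendocrine neurons that control growth, reproduction, appetite and stress responses, embedded in astrocytes, oligodendrocyte lineage cells, microglia and a dense capillary bed whose endothelium forms the blood-brain barrier. Growth factor receptors such as the vascular endothelial growth factor receptors steer the growth of that bed, and metabotropic glutamate receptors tune transmitter release and glial responses. In a bulk tissue array, fewer cells of a type and less RNA per cell cannot be told apart.

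The tissue label was checked against 14 hypothalamic peptide genes. All 10 of them that were on the array by name were measured, SST, OXT, NPY and POMC among them, and each of the 10 was well above background on every array but for GNRH1, which was so on 2 of 4 vehicle arrays. Of 8 anterior pituitary markers 5 were measured, with a summed level of 3.42 to 3.96 in vehicle and 3.44 to 4.31 in triclosan. No listed neuron marker was on the array under its symbol, and neither was any oligodendrocyte marker. Levels throughout are log2 of the processed spot signal minus the 75th percentile of the array, so that a negative level is dimmer than that percentile, and levels of different probes are not compared with each other.

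A probe or gene is called, or said to have risen or fallen, where the Benjamini-Hochberg adjusted p of limma's moderated test over all 13424 probes was below 0.05. Direct exposure called 1351 probes (10.1%), 410 higher (3.05%) and 941 lower (7.01%), and 3909 had an unadjusted p below 0.05 (29.1%). Among named genes it called 73 of 850 (8.59%), 29 higher (3.41%) and 44 lower (5.18%). Each count of called genes in a list below is to be read beside these shares. At an unadjusted p below 0.05 were 213 named genes (25.1%). The groups did not overlap at 1240 higher probes (9.24%) and 1717 lower ones (12.8%), and among named genes at 67 that were higher (7.88%) and 90 that were lower (10.6%). Of the 73 called genes 72 were among these. Called falls were larger, with a median size of 0.97 on the log2 scale against 0.59 for called rises. Of the called probes, 1235 have no gene name. The split depends on the scale: with each array centred on its median, which moved the median difference of all probes from −0.09 to 0.13, 1343 probes were called higher and 599 lower, with normexp background correction 771 and 860, and after centring within classes of probe base composition 896 and 400. The median processed signal was 315 to 380 on vehicle arrays and 236 to 307 on triclosan arrays, 83.3% to 89.9% of spots passed the scanner software's test of being well above background, and 0 were saturated. Replicates 1, 2 and 3 of both groups lay on slides 1, 2 and 3, vehicle 4 on slide 3, and triclosan 4 alone on slide 5, scanned on a day of its own. The first principal component, with 35.1% of the variance, placed vehicle arrays at −39.4 to −21.5 and triclosan arrays at 4.18 to 56.2.

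Calls followed the brightness and the base composition of the probes. By decile of mean level, the median log2 difference ran from −0.32 for the dimmest probes to 0.25 for the brightest, where 198 probes were called higher and 10 lower. With quantile normalization those medians were −0.09 and 0.02. Probes called higher had a median G and C content of 38.3%, those called lower 45.0%, and those not called 43.3%. Genes called higher sat at a median percentile of 96.3 for level and genes called lower at 39.5, with exceptions such as HSP90AA1, which fell at a percentile of 93.9, and NR3C1, which rose at 27.3. The part of brightness and composition in the differences of the gene groups was not tested beyond the alternative scalings. Probes near the 5′ end of 17 RefSeq transcripts were dimmer than probes at least 300 bases downstream by 1.83 to 2.43 in vehicle and 2.26 to 2.73 in triclosan, a difference of −0.27 between the groups (exact permutation test, two-sided p = 0.257).

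**Figure D1:**
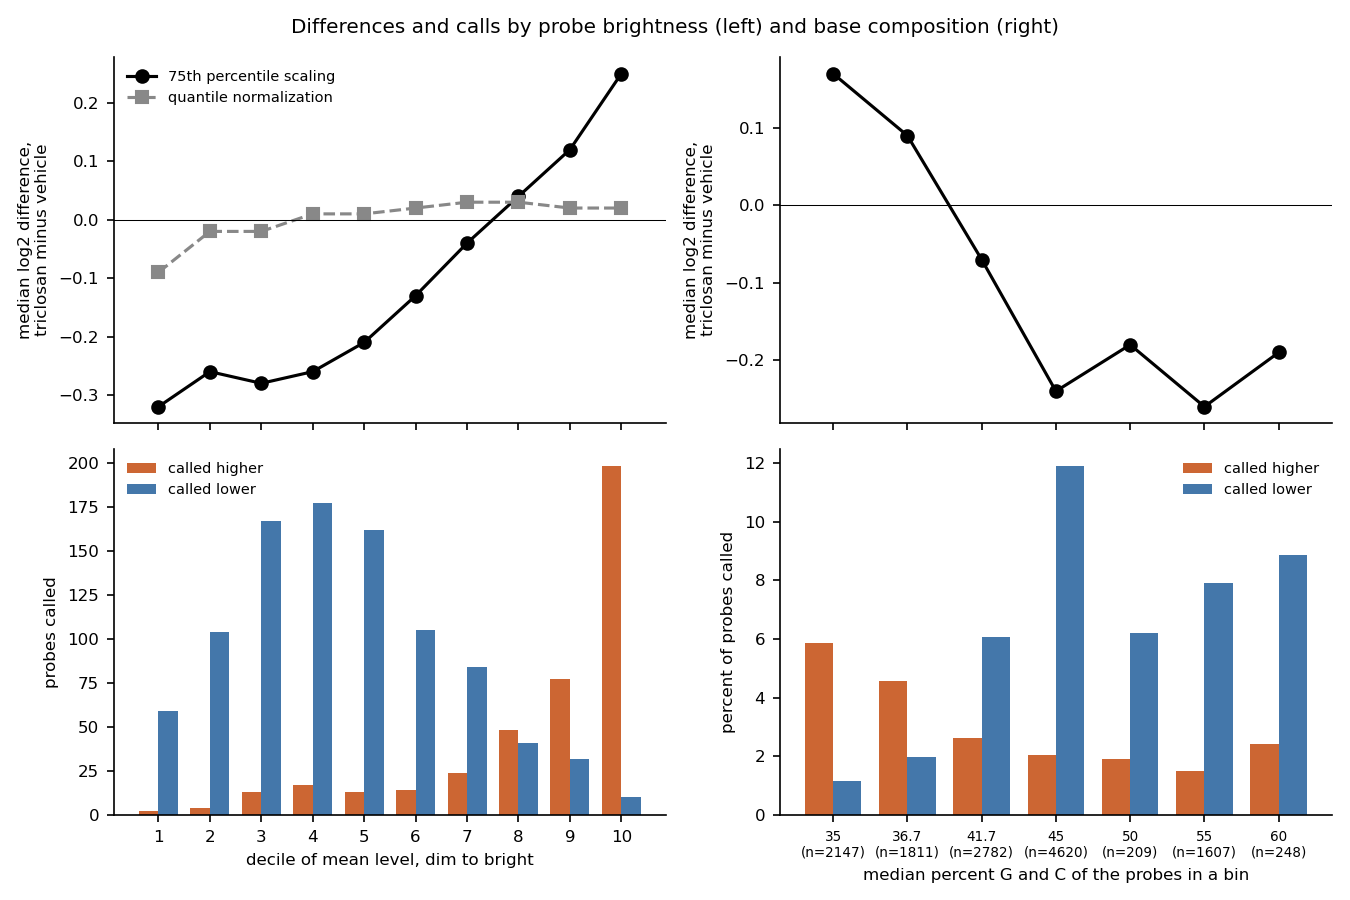
The upper panels plot the median log2 difference, triclosan minus vehicle, over 13424 probes by decile of mean level (left, with quantile normalization as squares) and by class of probe G and C content (right), and the lower panels show how many (left) or what percent (right) of the probes in each were called higher or lower. The difference climbs from −0.32 in the dimmest decile to 0.25 in the brightest, and is 0.17 for probes with a median of 35% G and C and −0.24 for those with a median of 45%.

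KDR, FGFR1 and FGFR3, receptors of growth factors, fell. KDR, through which vascular endothelial growth factor drives endothelial growth, carried 4 probes. The 4 sequences are shown because they come, pair by pair, from different transcript records of the gene. Whether both pairs read 1 transcript was not tested. Each sequence has at least 1 reading frame without a stop codon. The first and second overlap, and the 40 bases they share are in capitals. The files name no genome build, so no genome position is given.
KDR probe A_70_P026597: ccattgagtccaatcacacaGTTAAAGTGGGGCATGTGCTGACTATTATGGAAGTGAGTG
KDR probe A_70_P026596: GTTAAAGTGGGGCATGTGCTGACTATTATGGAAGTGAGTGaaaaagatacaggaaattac
KDR probe A_70_P041632: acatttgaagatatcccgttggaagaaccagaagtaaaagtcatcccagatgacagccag
KDR probe A_70_P041631: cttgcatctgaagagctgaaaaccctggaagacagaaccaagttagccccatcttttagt
The overlapping pair fell by 0.77 (SE 0.21, adjusted p = 0.049) and by 0.74 (SE 0.18, adjusted p = 0.0374), and the other pair, taken from another transcript record, by 1.95 (SE 0.22) and by 1.57 (SE 0.16), each with an adjusted p of 0.012. All 4 probes passed, and the groups did not overlap at any of them.

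By array, the brightest KDR probe had levels of −3.13, −3.10, −3.26 and −3.23 on vehicle arrays 1 to 4 and −4.93, −4.97, −4.75 and −4.36 on triclosan arrays 1 to 4. Every triclosan array was below every vehicle array by more than 1, a 2.97-fold lower mean signal. The differences within slides 1, 2 and 3 were −1.79, −1.87 and −1.51. FGFR1, a fibroblast growth factor receptor, had levels of −3.10, −3.36, −3.27 and −2.90 in vehicle and −4.10, −4.43, −3.95 and −4.13 in triclosan and fell by 0.99 (SE 0.16, adjusted p = 0.014), with both probes called. FGFR3, its relative of astrocytes and their precursors, was even on the vehicle arrays (−4.49 to −4.23) and uneven on the triclosan arrays, where replicate 2 was at −7.10 and the others at −5.76 to −5.44. It fell by 1.61 (SE 0.33, adjusted p = 0.0253), or by 0.40 with normexp correction, where it lost the call (adjusted p = 0.0881). With quantile normalization it also lost the call (−1.36, adjusted p = 0.0543). EGFR, the epidermal growth factor receptor, had −0.76 (SE 0.31, adjusted p = 0.143). Of 13 measured growth factor genes these 2 FGF receptors fell, the other 11 did not pass, and the median of the list was −0.06 (0.08 with the slide as a block) beside −0.09 for all 850 genes.

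In the angiogenesis and endothelium list 3 of 20 measured genes fell, beside 44 of all 850 named genes (5.18%), and the other 17 did not pass. The list median was −0.37 (slide-blocked, that is with the slide as a block in the fit, −0.31, and −0.21, −0.42 and −0.39 on slides 1, 2 and 3 alone). It was −0.18 with normexp correction, −0.14 with median scaling and −0.15 after composition centring, where the median of all named genes was 0.03, 0.13 and 0.15. CD93, a glycoprotein of endothelial and myeloid cells, had the largest fall of all named genes. Its levels were −2.09, −2.40, −2.64 and −2.48 in vehicle and −4.40, −5.91, −3.99 and −3.69 in triclosan, a fall of 2.10 (SE 0.43, adjusted p = 0.0252). NRP2, a co-receptor for vascular growth factors and semaphorins, fell by 0.97 (SE 0.19, adjusted p = 0.0219) at its brightest probe only, and by 0.24 with normexp correction, which ended the call (adjusted p = 0.207). ANGPT2, which destabilises vessels, did not pass at its brightest probe (−1.08, SE 0.39, adjusted p = 0.106), while 2 of its other 3 probes fell, at −1.20 and −1.41.

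Other endothelial markers did not pass at their brightest probes. PECAM1, a junction molecule of all endothelium, had levels of −1.16 to −0.53 in vehicle and −1.44 to −0.81 in triclosan, which overlap (difference −0.26, SE 0.21, adjusted p = 0.458). TIE1, an endothelial receptor, had −3.85 to −3.53 and −4.15 to −3.50 (difference −0.07, SE 0.17, adjusted p = 0.821). FLT1, the decoy receptor for vascular endothelial growth factor, had −4.11 to −3.74 and −4.78 to −3.18 at its brightest probe (difference −0.37, SE 0.34, adjusted p = 0.511), or −0.75 (adjusted p = 0.0521) without triclosan 1. All 5 FLT1 probes had a lower mean in triclosan and 1 was called, A_70_P026321 (adjusted p = 0.0316). That probe was well above background on all 4 vehicle arrays and on 0 triclosan arrays. It passed the filter only through the vehicle arrays, and its vehicle mean was at least 2.03-fold higher. PECAM1, TIE1, FLT1 and KDR were the measured markers of endothelium and pericytes of 12 listed, and their summed level was −0.52 to −0.09 in vehicle and −0.92 to −0.32 in triclosan.

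Among junction, transporter and efflux genes of the barrier, 2 of 11 fell, beside 44 of all 850 named genes (5.18%), and the other 9 did not pass. The list median was −0.40 (slide-blocked −0.32, and −0.42, −0.44 and −0.25 on slides 1, 2 and 3 alone). That median was −0.06 with normexp correction, −0.18 with median scaling and −0.00 after composition centring. SLC2A1, the glucose transporter of barrier endothelium and glia, had tight groups, 1.33 to 1.62 in vehicle and 0.81 to 1.03 in triclosan, and fell by 0.54 (SE 0.12, adjusted p = 0.0326) at 1 of 2 probes. SLC2A1 lost the call with median scaling and after composition centring. The efflux pumps ABCB1 and ABCG2 did not pass at their brightest probes and had opposite signs (−0.49 with adjusted p = 0.0724 and 0.46 with adjusted p = 0.0813), each with groups that did not overlap. The other probe of ABCB1 fell, by 0.66 (SE 0.18, adjusted p = 0.0481). SLCO2A1, a prostaglandin carrier, had −1.01 (SE 0.30, adjusted p = 0.0668) and was called with the slide as a block and without triclosan 4.

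**Figure D2:**
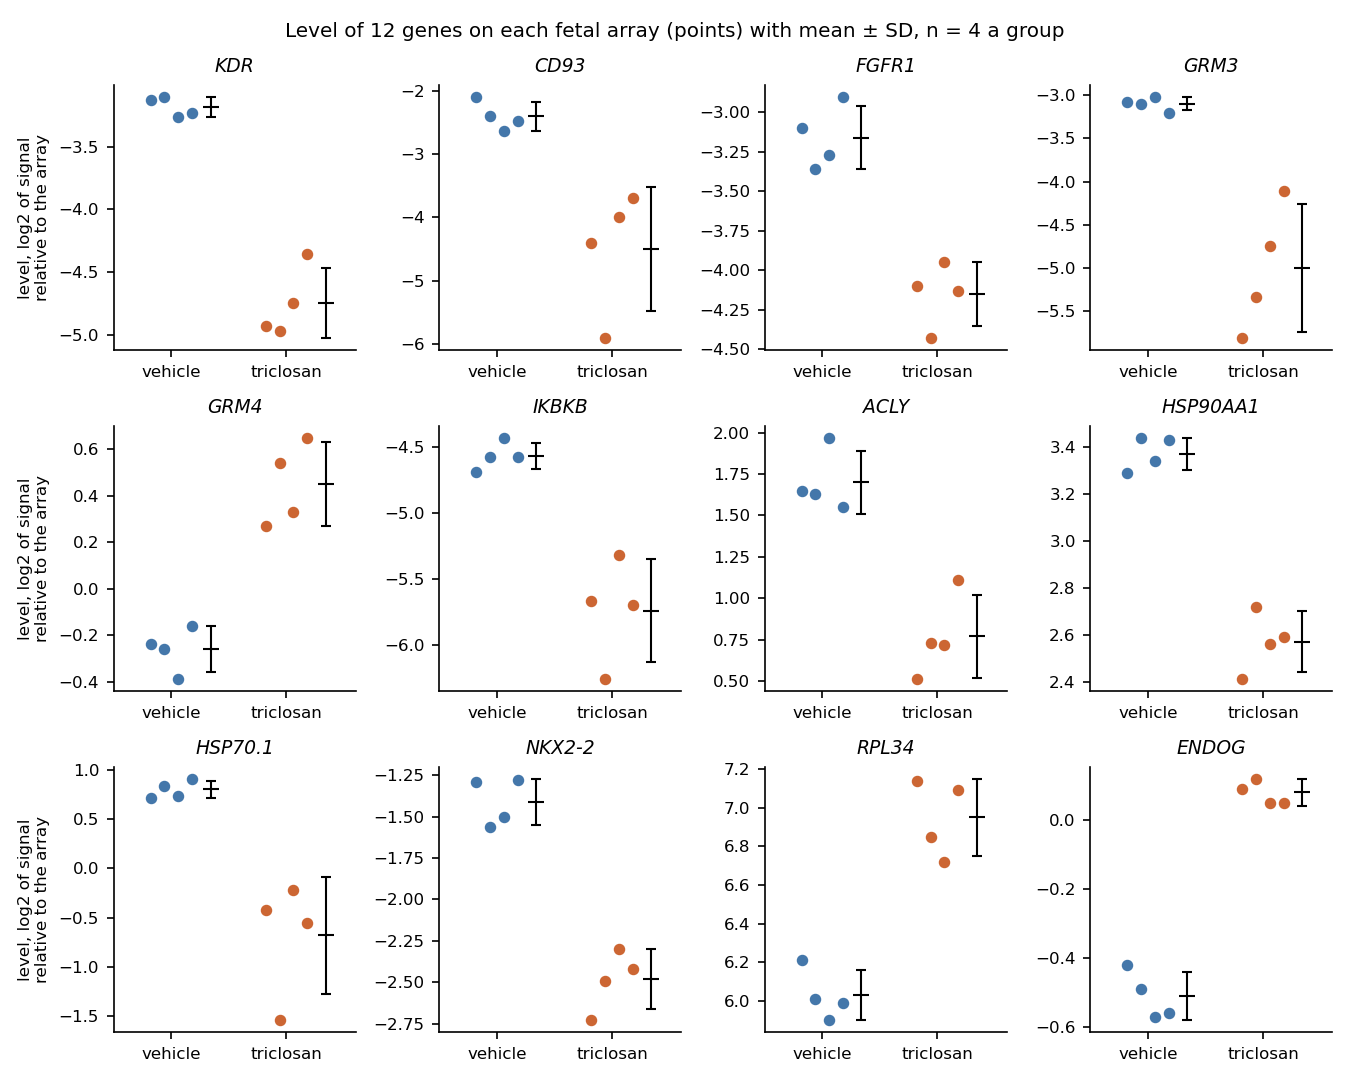
Each panel plots 1 gene's level (log2 of the processed signal minus the array's 75th percentile) on the 4 vehicle and 4 triclosan arrays as points, replicates 1 to 4 from left to right, with the mean and SD beside them. The vertical scales differ between panels. In each of the 12 panels the groups do not overlap, and GRM3 and CD93 have SDs of 0.74 and 0.98 in triclosan against 0.08 and 0.23 in vehicle.

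Metabotropic glutamate receptors, which couple glutamate to G proteins, had called members in both directions. GRM3, a receptor of glia and presynaptic endings, fell by 1.89 (SE 0.33, adjusted p = 0.018) and GRM8, a presynaptic receptor, by 0.60 (SE 0.14, adjusted p = 0.037). GRM4, another presynaptic receptor, rose by 0.71 (SE 0.13, adjusted p = 0.0206). The probes are printed with G and C in capitals because composition went with direction over the whole array.
GRM3 probe A_70_P041726: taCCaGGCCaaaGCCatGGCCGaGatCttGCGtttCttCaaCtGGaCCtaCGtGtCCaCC
GRM8 probe A_70_P002896: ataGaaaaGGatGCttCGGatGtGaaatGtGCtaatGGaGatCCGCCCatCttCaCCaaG
GRM4 probe A_70_P002881: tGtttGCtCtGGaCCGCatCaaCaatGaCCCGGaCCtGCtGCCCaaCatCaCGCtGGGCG
Their G and C shares are 55.0%, 45.0% and 60.0%. The probe that rose has the highest share of the 3, while over all probes those called higher had the lower median share. It also has the highest mean level (0.09, against −4.05 for GRM3 and −4.11 for GRM8), and bright probes were called higher more often. The part of composition or brightness in these 3 differences was not tested beyond the alternative scalings. After centring within composition classes GRM3 and GRM4 kept their calls and GRM8 lost its own.

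By array, GRM3 was at −3.08, −3.11, −3.02 and −3.21 in vehicle and at −5.81, −5.33, −4.74 and −4.11 in triclosan. The vehicle arrays were close together and the triclosan arrays spread widely. GRM4 was at −0.24, −0.26, −0.39 and −0.16 against 0.27, 0.54, 0.33 and 0.65. The groups did not overlap in either gene. With the slide as a block GRM8 (adjusted p = 0.085) lost the call. HOMER, a postsynaptic scaffold, fell by 0.81 (SE 0.20, adjusted p = 0.0386) and also lost the call with the block (adjusted p = 0.058). Other receptors of the family were not called: GRM2 had −0.81 (SE 0.49), GRM6 −0.41 (SE 0.16) and GRM7 −0.67 (SE 0.30). GRIN1, the obligatory subunit of NMDA receptors, had −0.67 (SE 0.25, adjusted p = 0.117), with levels of −1.61 to −0.92 in vehicle and −2.30 to −1.21 in triclosan. Over the list of glutamate and GABA genes 1 of 15 rose, 3 fell and 11 did not pass. Of all named genes 3.41% rose and 5.18% fell. The list median was −0.27 (slide-blocked −0.15, and −0.43, −0.18 and −0.03 on slides 1, 2 and 3 alone). With median scaling that median was −0.05 and after composition centring −0.02. HOMER is not in that list.

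MYD88, IKBKB, TRAF3 and TNFRSF1A, 4 genes of innate immune signalling set together after their values were seen, fell. MYD88, the adaptor of Toll-like and interleukin-1 receptors, had levels of −3.71, −3.41, −3.35 and −3.39 in vehicle and −4.40, −4.69, −3.95 and −4.47 in triclosan, a fall of 0.91 (SE 0.18, adjusted p = 0.0222). IKBKB, the kinase that releases NF-kappaB from its inhibitor, was at −4.69, −4.58, −4.43 and −4.58 against −5.67, −6.26, −5.32 and −5.70, a 2.25-fold fall (log2 −1.17, SE 0.20, adjusted p = 0.017). The groups did not overlap in either gene, and in each 1 of 2 probes was called. TRAF3, an adaptor of tumour necrosis factor and interferon signalling, fell by 0.98 (SE 0.19, adjusted p = 0.0221) with both probes called, and TNFRSF1A, the widely expressed receptor for tumour necrosis factor, by 0.82 (SE 0.19, adjusted p = 0.0334). With normexp correction TRAF3 kept its call, while IKBKB (−0.37, adjusted p = 0.102), MYD88 (−0.39, adjusted p = 0.067) and TNFRSF1A (−0.26, adjusted p = 0.185) did not.

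IKBKB, named outside the selection rule, and TRAF3 are in no list. Over all 850 named genes 44 (5.18%) fell. Of 20 interferon and pattern recognition genes MYD88 alone passed, with a median of −0.13 (0.09 with median scaling and 0.04 after composition centring), and of 29 cytokine and chemokine genes TNFRSF1A alone, with a median of −0.35 (slide-blocked −0.13; 0.02 with normexp correction). TLR4, which senses bacterial lipopolysaccharide, had −0.63 (SE 0.20, adjusted p = 0.0757). CXCL10, an interferon-induced chemokine, had the largest positive difference in these lists: −2.83, −3.79, −4.28 and −4.16 in vehicle and −1.73, −1.47, −1.04 and −3.77 in triclosan, where replicate 4 lay among the vehicle arrays (difference 1.76, SE 0.58, adjusted p = 0.0865). Without triclosan 4 it was called (adjusted p = 0.0139), as it was with normexp correction and with median scaling. MIF, a cytokine, had 0.73 (SE 0.21, adjusted p = 0.0607). Of 26 microglia and leukocyte genes, ITGAM, the alpha chain of a phagocyte complement receptor, fell by 0.95 (SE 0.23, adjusted p = 0.0392), and FCER1G, an Fc receptor chain of the same cells, had 0.46 (SE 0.19, adjusted p = 0.14). The other probe of ITGAM did not pass (−0.79, adjusted p = 0.117). ITGAM lost the call with normexp correction, quantile normalization, the values deposited by the authors and composition centring, and without the filter on dim probes. The summed level of the 6 measured microglia and leukocyte markers was −0.21 to 0.35 in vehicle and 0.15 to 0.39 in triclosan.

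In TGF-beta and BMP signalling 2 of 27 genes fell and 25 did not pass, beside 44 of all 850 named genes (5.18%) that fell. The list median was −0.16 (slide-blocked −0.07, and −0.22, 0.02 and −0.15 on slides 1, 2 and 3 alone). It was 0.04 with normexp correction and 0.06 with median scaling. ACVR1, a type I receptor for bone morphogenetic proteins, had levels of −2.14, −2.07, −2.04 and −2.40 in vehicle and −3.35, −2.80, −3.25 and −2.80 in triclosan and fell by 0.89 (SE 0.17, adjusted p = 0.0221). SMAD1, which carries that signal to the nucleus, fell by 0.67 (SE 0.16, adjusted p = 0.0395) and lost the call with the slide as a block (adjusted p = 0.0793). SMAD1 was at −4.95 on triclosan 1, near the vehicle arrays (−4.83 to −4.59), and at −5.56 to −5.48 on the other triclosan arrays. Both ACVR1 and SMAD1 lost the call with median scaling, quantile normalization, the values deposited by the authors and composition centring. BMP7, a ligand, had −0.93 (SE 0.26, adjusted p = 0.0543), and CHRD, which sequesters such ligands, −0.68 (SE 0.19, adjusted p = 0.0581). NKX2-2, a homeodomain factor of the ventral neural tube and of oligodendrocyte precursors, is in no list. Both of its probes fell, the brighter by 1.08 (SE 0.14, adjusted p = 0.0139), from −1.29, −1.56, −1.50 and −1.28 in vehicle to −2.73, −2.49, −2.30 and −2.42 in triclosan. No vehicle array was below −1.56 and no triclosan array above −2.30.

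ACLY, ACSS2 and SCD, which supply acetyl groups and fatty acids, fell. ACLY, which makes cytosolic acetyl-CoA from citrate, was at 1.65, 1.63, 1.97 and 1.55 against 0.51, 0.73, 0.72 and 1.11 (log2 −0.93, SE 0.17, adjusted p = 0.0187). ACSS2, which makes it from acetate, fell by 1.00 (SE 0.20, adjusted p = 0.0244) at 1 of 2 probes. SCD, the desaturase of saturated fatty acids, fell by 0.72 (SE 0.15, adjusted p = 0.0244), and lost the call with the slide as a block (adjusted p = 0.0556).

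Over the list of fatty acid synthesis and lipid uptake, which does not hold ACSS2, 3 of 13 fell, beside 5.18% of all named genes, and 10 did not pass. Its median of −0.17 (slide-blocked −0.21; slides 1, 2 and 3 alone −0.13, −0.58 and −0.14) turned to 0.05 with median scaling and 0.17 after composition centring. ME1, which supplies NADPH for fatty acid synthesis, had −0.54 (SE 0.16, adjusted p = 0.0628). PPARGC1A, a coactivator of mitochondrial genes, fell at all 3 of its probes, by 0.92 (SE 0.18, adjusted p = 0.0229) at the brightest, from −2.76, −2.33, −2.69 and −2.30 to −3.75, −3.09, −3.47 and −3.44. With median scaling, quantile normalization and the values deposited by the authors PPARGC1A lost the call. CPT1A, which carries fatty acids into mitochondria, lay at the threshold: its brightest probe had −0.89 (SE 0.24, adjusted p = 0.0516) and the probe beside it fell by 0.81 (SE 0.20, adjusted p = 0.04). They had the 2 lowest p-values in the list of fatty acid oxidation and mitochondria, of whose 12 genes 0 rose and PPARGC1A alone fell (median −0.08; 0.15 with median scaling). SHMT1, which feeds one-carbon metabolism from serine, fell at both probes, by 1.05 (SE 0.24, adjusted p = 0.0319) at the brighter, and lost the call with the slide as a block (adjusted p = 0.05 after rounding).

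**Figure D3:**
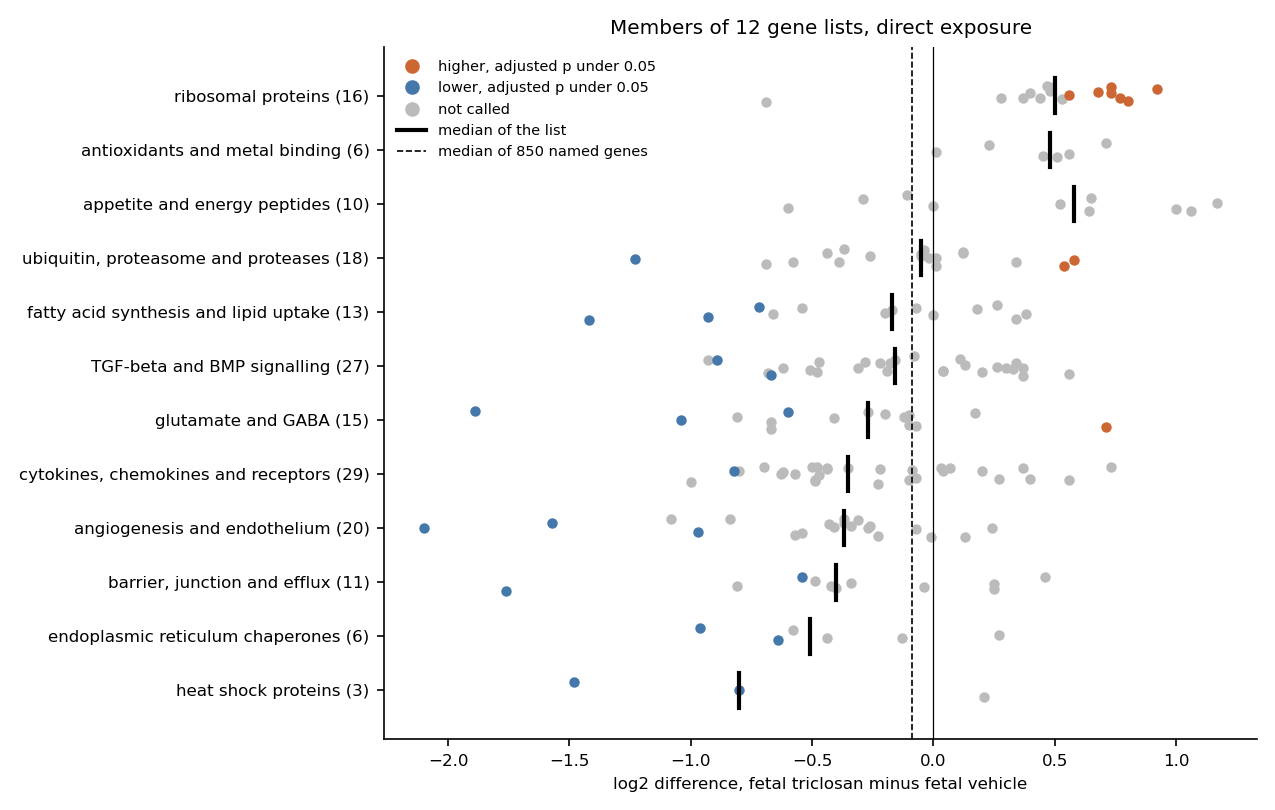
Each point is the log2 difference, fetal triclosan minus fetal vehicle, of 1 measured gene in 12 of the gene lists, with the number measured in brackets. Coloured points passed the adjusted threshold, the short bar is the median of the list, and the dashed line is the median of 850 named genes at −0.09. Called falls lie to the left in 9 of the lists, and 7 of 16 genes in the ribosomal protein list rose.

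Of 3 heat shock protein genes 2 fell (log2 −1.48 to 0.21 over the 3), and of 6 endoplasmic reticulum chaperone and stress genes 2 fell (−0.96 to 0.27 over the 6). Of all named genes 5.18% fell. HSP90AA1, an abundant cytosolic chaperone, was at 3.29, 3.44, 3.34 and 3.43 in vehicle and 2.41, 2.72, 2.56 and 2.59 in triclosan (log2 −0.80, SE 0.12, adjusted p = 0.0139). HSP70.1, a heat-inducible chaperone that keeps its name from the array design, was at 0.71 to 0.91 in vehicle and −1.54 to −0.22 in triclosan and fell by 1.48 (SE 0.27, adjusted p = 0.0195). HSPA5, the main chaperone of the endoplasmic reticulum lumen, fell by 0.64 (SE 0.17, adjusted p = 0.0464) and PDIA4, a disulfide isomerase there, by 0.96 (SE 0.24, adjusted p = 0.0406). XBP1, which induces genes of the unfolded protein response, had −0.58 (SE 0.26, adjusted p = 0.173). ERP29, a folding assistant for secreted proteins that is in no list, went the other way and rose by 0.52 (SE 0.11, adjusted p = 0.0302; 0.0538 with the slide as a block), from 1.89, 2.03, 1.88 and 1.94 to 2.42, 2.53, 2.32 and 2.53. The median of the 6 endoplasmic reticulum genes was −0.51 (slide-blocked −0.54; slides 1, 2 and 3 alone −0.46, −0.80 and −0.28). It stayed below 0 with median scaling (−0.29), quantile normalization (−0.43) and composition centring (−0.19), although the last ended the calls of HSP90AA1, HSPA5 and PDIA4. The calls of HSPA5 and PDIA4 were also lost with median scaling and without the filter on dim probes. PDIA4 lost its call with quantile normalization and the values deposited by the authors too.

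In the growth hormone and IGF list 3 of 19 genes fell, beside 5.18% of all named genes, and 16 did not pass. The list median was −0.29 (slide-blocked −0.12, and −0.24, −0.34 and 0.12 on slides 1, 2 and 3 alone), or 0.03 with normexp correction. STAT5A, a transcription factor of growth hormone and prolactin signalling, fell at both probes, by 1.06 (SE 0.22, adjusted p = 0.0261), from −3.61, −3.35, −3.42 and −3.16 to −4.38, −4.85, −3.86 and −4.70. IGF2R, which clears IGF2 and carries lysosomal enzymes, fell by 0.80 (SE 0.21, adjusted p = 0.0461). Both lost the call with the slide as a block (adjusted p = 0.0542 and 0.0551). PAPPA, a protease that frees IGF from a binding protein, was well above background on 3 vehicle arrays and on 0 triclosan arrays. It passed the filter only through the vehicle arrays. Its call (adjusted p = 0.0396), counted among the 3 falls above, rests on signals near background. PAPPA was the 1 called gene whose groups overlapped. With normexp correction its difference was 0.04. FBXO32, also called atrogin-1, a muscle atrophy ubiquitin ligase that is repressed by insulin-like signals, fell by 1.23 (SE 0.24, adjusted p = 0.0218), from 1.32, 0.90, 0.45 and 0.55 to −0.15, −0.86, −0.21 and −0.49.

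Of the stress axis list, NR3C1, the glucocorticoid receptor, was the 1 of 14 that passed. It was at −4.22, −4.45, −4.24 and −4.34 in vehicle and −3.68, −3.50, −3.33 and −3.96 in triclosan, a rise of 0.69 (SE 0.16, adjusted p = 0.0325) at a dim probe. CRHR1, a receptor for corticotropin-releasing hormone, had −0.93 (SE 0.30, adjusted p = 0.0795). MC5R, a melanocortin receptor, fell by 1.00 (SE 0.21, adjusted p = 0.0278) but was well above background on 1 of 4 triclosan arrays, and had 0.04 with normexp correction. ASIP, the agouti peptide that blocks melanocortin receptors, was at 3.70, 3.77, 5.14 and 4.60 in vehicle and 5.20 to 5.38 in triclosan and did not pass (1.00, SE 0.31, adjusted p = 0.0724). JUND, which pairs with FOS proteins in AP-1, fell by 1.14 (SE 0.25, adjusted p = 0.0287), and CSNK1E, a kinase that sets the speed of the circadian clock, by 0.84 (SE 0.20, adjusted p = 0.0348). CSNK1E was at −0.71 to −0.62 in vehicle and −1.92 to −1.03 in triclosan, and CSNK1D, its close relative, had −0.39 (SE 0.13, adjusted p = 0.0864). With the slide as a block JUND (adjusted p = 0.0583) and CSNK1E (adjusted p = 0.0729) lost the call.

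Of the 29 called rises 7 were of genes in the ribosomal protein list, which are abundant transcripts. Of 16 measured genes of this list 7 rose, beside 29 of all 850 named genes (3.41%), and 9 did not pass. The list median was 0.50 (slide-blocked 0.49, and 0.60, 0.40 and 0.45 on slides 1, 2 and 3 alone), or 0.21 with quantile normalization. RPL34 was at 6.21, 6.01, 5.90 and 5.99 in vehicle and 7.14, 6.85, 6.72 and 7.09 in triclosan (0.92, SE 0.14, adjusted p = 0.0139). RPS26 rose at all 3 of its probes (0.77, SE 0.13, at the brightest). RPS12, RPS20, RPL6 and RPS27A also rose, by 0.56 to 0.73, each with a value missing from the fit on slide 2, where the spot was marked as an outlier. RPL32, a further ribosomal protein gene, chosen after its value was seen, went the other way (−0.69, SE 0.21, adjusted p = 0.0669), with groups that did not overlap. With quantile normalization none of these 6 kept its call, and RPS27A had −0.06.

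Of 8 translation factor genes 2 fell, beside 5.18% of all named genes. EIF4G1, the scaffold of the cap-binding complex, fell by 1.16 (SE 0.25, adjusted p = 0.029), from −1.70, −1.63, −1.47 and −1.68 to −3.01, −3.00, −1.97 and −3.14, and PABPC1, the poly(A)-binding protein, by 0.61 (SE 0.15, adjusted p = 0.0379). Both lost the call with the slide as a block (adjusted p = 0.0576 and 0.0836). The other 6 did not pass, among them TPT1, a growth-related protein (0.51, adjusted p = 0.0696), and RACK1, a ribosomal scaffold (0.42, adjusted p = 0.0726), both higher in triclosan with groups that did not overlap. The difference between these genes and the ribosomal proteins was not tested.

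Of called genes in no list, 6 with mitochondrial products rose, chosen for display after their calls were known, whereas in the list of fatty acid oxidation and mitochondria 0 of 12 rose. ATP5MC2 and ATP5PO, subunits of ATP synthase, rose by 0.58 (SE 0.12, adjusted p = 0.0251) and 0.59 (SE 0.13, adjusted p = 0.0274), NDUFA12, a subunit of complex I, by 0.59 (SE 0.13, adjusted p = 0.0319), and SLC25A6, a carrier that exchanges ADP and ATP, by 0.63 (SE 0.13, adjusted p = 0.0239). ATP5PO was at 3.86, 3.84, 3.65 and 3.72 in vehicle and 4.32, 4.47, 4.17 and 4.49 in triclosan. SLIRP, which stabilises mitochondrial messages, rose by 0.67 (SE 0.16, adjusted p = 0.0387). All 5 lost the call with quantile normalization, where their differences were smaller. ENDOG, a mitochondrial nuclease with a less bright probe, kept it: its levels were −0.42, −0.49, −0.57 and −0.56 in vehicle and 0.09, 0.12, 0.05 and 0.05 in triclosan (0.59, SE 0.11, adjusted p = 0.0199). PPARGC1A fell on the same arrays, and its call too was lost with quantile normalization.

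Proteasome subunits PSMB7 and PSMA6 rose by 0.50 (SE 0.13, adjusted p = 0.0437) and 0.54 (SE 0.14, adjusted p = 0.0436). YWHAE, a 14-3-3 adaptor, rose by 0.68 (SE 0.17, adjusted p = 0.0394). The other probes of PSMB7 (0.51, adjusted p = 0.0601) and YWHAE (0.29, adjusted p = 0.39) did not pass. All of these genes lost the call with quantile normalization and with the authors' values. In the ubiquitin, proteasome and protease list, which holds PSMA6 but not PSMB7, 2 of 18 genes rose, 1 fell and 15 did not pass (median −0.05).

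The remaining called genes belong to no common list. Rises of 0.46 to 0.63 were found for TXNDC17, a thioredoxin-like protein, CIB1 and SRI, both calcium-binding proteins, H2AZ1, a histone variant, ATOX1, a copper chaperone, ITM2B, a membrane protein of neurons and glia, and BBC1. BBC1 was not counted with the ribosomal protein genes above. Among falls, PSAP, the precursor of lysosomal saposins, fell by 0.98 (SE 0.17, adjusted p = 0.0175) at its brightest probe, while its other probes had −0.83 and 0.72 and did not pass, the only called gene of 31 with several probes whose probes differed in sign. FHL1, a LIM domain protein, fell by 0.69, LMNB1, a lamin of the nuclear envelope, by 0.86, RPA1, which binds single-stranded DNA, by 0.84, and RHOF, a small GTPase, by 0.90. The antioxidant genes MT3 (0.71, SE 0.22, adjusted p = 0.0723) and TXN (0.56, SE 0.17, adjusted p = 0.0656) had groups that did not overlap, all higher in triclosan, and did not pass at their brightest probes. The other probe of TXN did (0.60, adjusted p = 0.0353).

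Of 3 red cell markers measured, AHSP alone passed, at 1 of its 2 probes. AHSP, which stabilises free alpha globin, rose by 0.94 (SE 0.22, adjusted p = 0.0334), from −3.77, −4.38, −4.17 and −4.29 to −3.16, −3.10, −3.74 and −2.86, or by 0.77 with the slide as a block (adjusted p = 0.057). HBB, beta haemoglobin, was at 2.35, 2.70, 2.06 and 3.61 against 3.54, 4.39, 3.53 and 4.52 and did not pass (1.32, SE 0.37, adjusted p = 0.0578), and CA1, a carbonic anhydrase of red cells, had 1.14 (SE 0.47, adjusted p = 0.153). The summed level of the 3 was 2.08 to 3.61 in vehicle and 3.54 to 4.53 in triclosan, and its part in the other differences was not tested.

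None of the 10 hypothalamic peptide genes passed in limma's test (1 had an unadjusted p below 0.05, beside 25.1% of all named genes), and their arrays spread widely. GHRH, which releases growth hormone, was at −4.07, −4.81, −4.50 and −1.60 in vehicle and 0.29, −1.10, −1.01 and −3.89 in triclosan (2.32, SE 0.96, adjusted p = 0.152). AGRP, an appetite-stimulating peptide, was at −5.33, −4.33, −3.24 and −2.32 against −0.68, −1.48, −2.39 and −6.00 (1.17, SE 1.12, adjusted p = 0.527). SST, which inhibits growth hormone release, was at 3.79, 2.46, 2.78 and 3.50 against 4.51, 5.47, 4.46 and 2.66 (1.14, SE 0.56, adjusted p = 0.218).

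In each of the 10 genes triclosan 4 was the lowest of its group. For these 3 it was among or below the vehicle arrays, while vehicle 4 was high for GHRH and AGRP. The mean over the 10 genes was −0.35, −0.44, −0.65 and −2.52 on triclosan arrays 1 to 4 and −2.12, −2.57, −2.38 and −1.08 on vehicle arrays 1 to 4. Without triclosan 4, GHRH (3.14, adjusted p = 0.0404), SST (1.68, adjusted p = 0.0328), GAL (galanin, 1.50, adjusted p = 0.0426) and TAC3 (neurokinin B, 1.31, adjusted p = 0.0324) were called. With all 8 arrays GAL had 1.06 (SE 0.49), TAC3 0.90 (SE 0.43), GNRH1, which releases gonadotropins, 1.61 (SE 0.77), NPY 0.64 (SE 0.61), POMC, the melanocortin precursor, 0.65 (SE 0.43), PMCH (melanin-concentrating hormone) 0.52 (SE 0.31) and OXT (oxytocin) 0.43 (SE 0.48). TTR, transthyretin, secreted by choroid plexus, ranged from −0.97 to 1.34 in vehicle and from −2.11 to 3.36 in triclosan (0.76, SE 1.12), and triclosan 1 had the lowest and triclosan 3 the highest level.

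**Figure D4:**
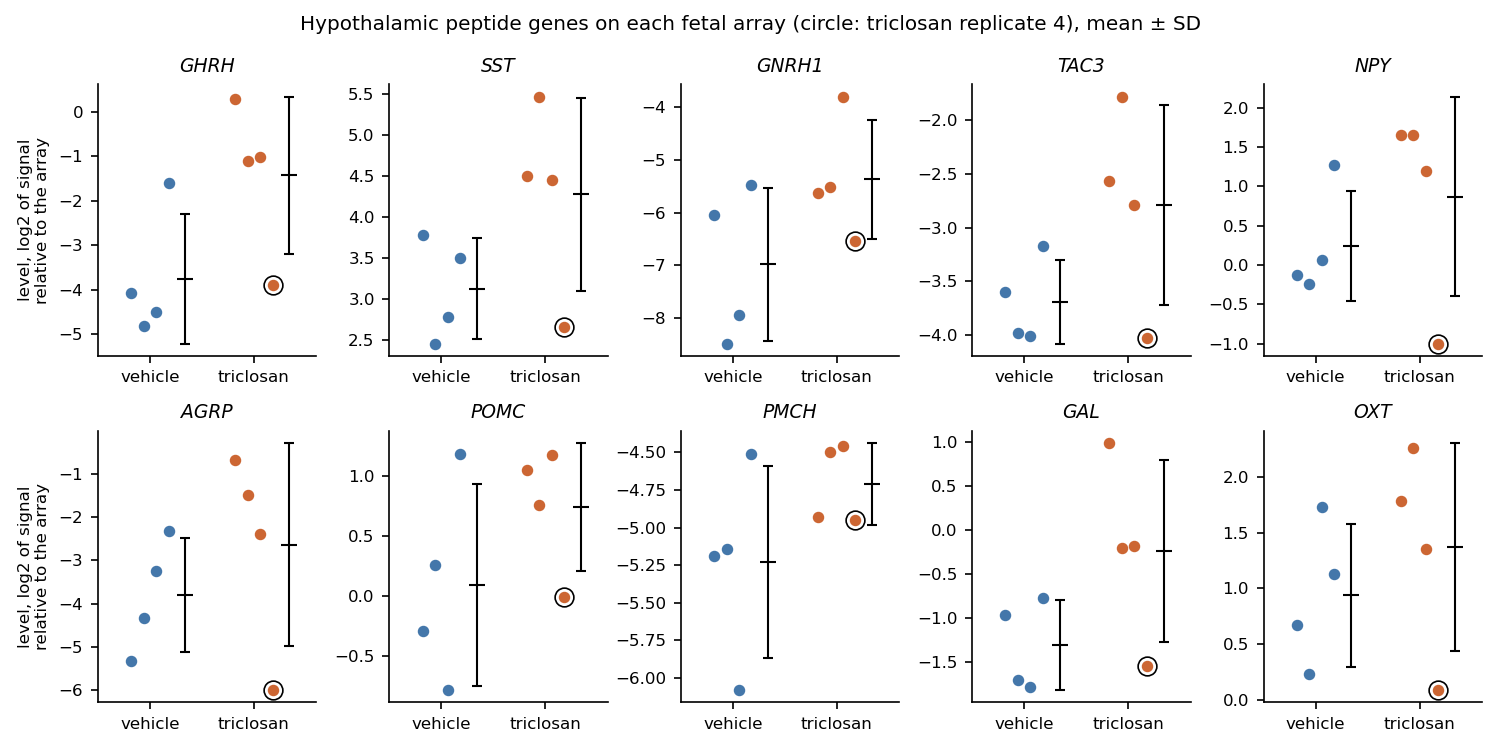
The levels (log2 of the processed signal minus the array's 75th percentile) of 10 hypothalamic peptide genes are plotted for the 4 vehicle and 4 triclosan arrays, with the mean and SD, and triclosan replicate 4 circled. In all 10 panels triclosan 4 is the lowest triclosan array, and for AGRP it lies at −6.00, below all vehicle arrays.

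All calls depended on the full set of vehicle arrays. Without vehicle 1 or without vehicle 3, limma called 2 probes and 0 of the 73 genes, with adjusted p from 0.0534 to 0.12 and from 0.0586 to 0.142, although each of the 73 kept its sign and an unadjusted p below 0.05 in both fits (3250 and 2941 probes had such a p). The calls of 8 genes, KDR, FGFR1, IKBKB, NKX2-2, HSP90AA1 and RPL34 among them, were lost in these 2 fits and in no other that left out 1 array. The other 65 lost theirs in at least 1 more: 11, 14, 14 and 36 of the 73 kept it without vehicle 2, vehicle 4, triclosan 1 and triclosan 2, and 66 and 61 without triclosan 3 and triclosan 4. In the slide-blocked fit, in which triclosan 4 carries no weight, 44 kept it. The 29 that lost it had adjusted p from 0.05 to 0.087 there, and beside those given above ATOX1, BBC1, H2AZ1, ITM2B, MC5R, PAPPA, PSMA6, PSMB7, RHOF, RPS20, RPS27A, SRI, TXNDC17 and YWHAE were among them.

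Across 9 alternatives in filter, scaling, background, source of the values, fit and slide block, 18 genes kept the call wherever they were tested. These 9 leave out the fits without 1 array and the fit with the replicate number as a block. Among these, in order of p, are KDR, NKX2-2, FGFR1, PSAP, GRM3, ACLY, HSP70.1, ENDOG, GRM4, FBXO32, TRAF3, ACSS2, CD93 and NR3C1. With the replicate number as a block 10 of the 73 genes kept the call, and of the 18 only 6 did, KDR, NKX2-2, FGFR1 and ACSS2 among them. The other 12 had adjusted p from 0.0521 to 0.0716, GRM3 (0.0541), GRM4 (0.0587), CD93 (0.0608) and TRAF3 (0.0701) among them. Of the 29 called rises 6 were called after quantile normalization (AHSP, ENDOG, GRM4 and NR3C1 among them), against 26 of the 44 called falls.

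The indirect arm (maternal triclosan, n = 3, and maternal vehicle, n = 2 independent arrays) shares no control with the direct arm. Its limma test called 0 of 13424 probes (0%), with 1300 probes (9.68%) and 80 named genes (9.41%) at an unadjusted p below 0.05 and a lowest adjusted p of 0.217. The difference between the arms, tested in 1 fit of all 13 arrays, also called 0 probes (0%), with 2004 probes (14.9%) and 97 named genes (11.4%) at an unadjusted p below 0.05 and a lowest adjusted p of 0.183, so no gene is shown to respond differently by route. Of the 73 genes, 61 (83.6%) had the same sign in both arms, beside 483 of 850 (56.8%) over all named genes.

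Some genes had similar differences in both arms and others did not. HSP90AA1 had −0.80 with direct and −0.92 (SE 0.17) with indirect exposure, PDIA4 −0.96 and −0.93 (SE 0.28), ITGAM −0.95 and −0.97 (SE 0.36), and ACVR1 −0.89 and −0.71 (SE 0.22). AHSP had 0.94 and 1.44 (SE 0.36). KDR had −1.57 and −0.42 (SE 0.22), CD93 −2.10 and −0.24 (SE 0.51), and ACSS2, which fell by 1.00 with direct exposure, 0.06 (SE 0.23) with indirect exposure. MYD88 had −0.91 and 0.65 (SE 0.29), and the difference between the arms had an unadjusted p of 0.0012.

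**Figure D5:**
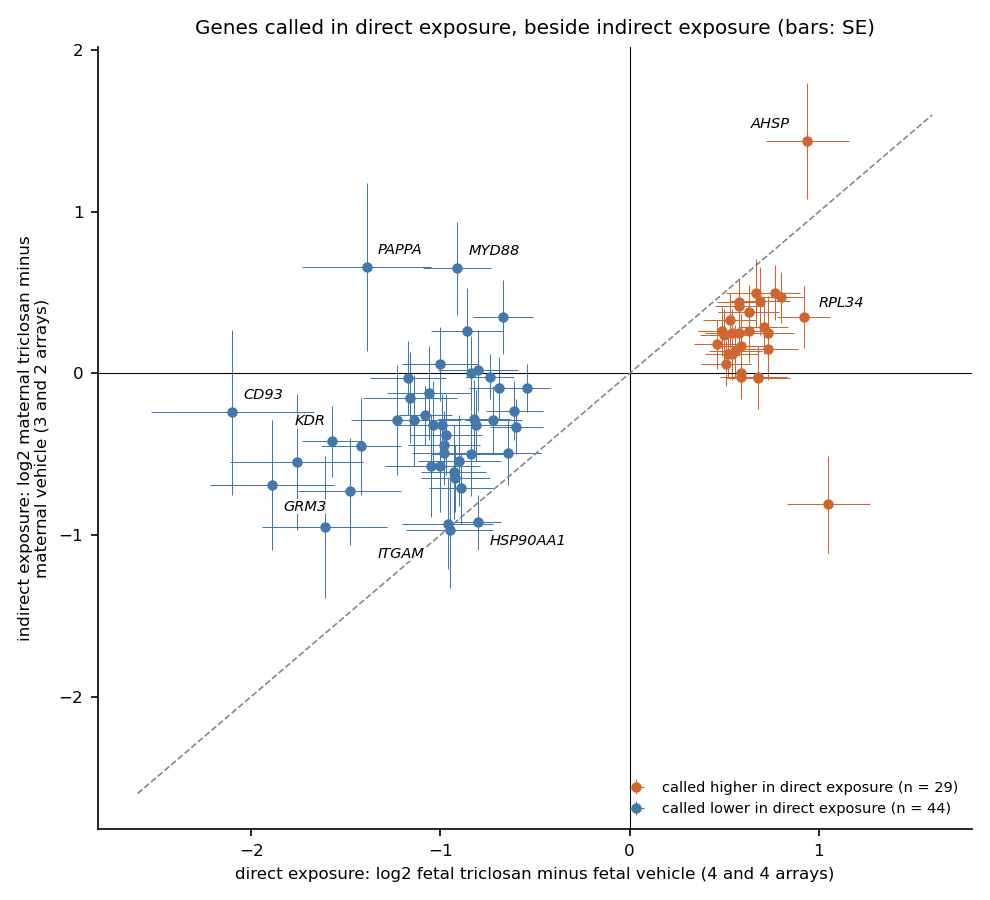
Each of the 73 genes called in direct exposure is plotted by its log2 difference there (horizontal, 4 and 4 arrays) and in indirect exposure (vertical, 3 and 2 arrays), with SE bars and a dashed line of equal differences. Of these genes 61 lie on the same side of 0 on both axes, and MYD88 and PAPPA are among the 12 that do not.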

How the data were processed

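Total RNA of fetal hypothalamus was labelled with Cy3 and hybridised to a 1-colour Agilent ovine array. The deposited scanner files hold spot intensity from Agilent Feature Extraction 10.1.1.1, and per the file headers the authors' processed signal was background-subtracted and detrended within each array but not scaled between arrays. The value table deposited by the authors holds log2 values for 13899 probes, a scale inferred by setting each column against its own scanner file (slope 0.80 to 0.89), and how it was scaled between arrays is not given here by label or header; its column medians are 8.78 to 8.80. It served as an alternative.

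Control spots and outlier spots were left out (104 missing values), spots of a probe were averaged, and log2 processed signal was set against the 75th percentile of each array. Probes well above background on at least 3 of the 8 arrays were fitted with lmFit and eBayes of limma 3.58.1 in R 4.3.3 (6 residual and 2.63 prior degrees of freedom), with p-values adjusted by Benjamini-Hochberg over all of them. On data simulated for the direct comparison at 13424 probes, the fit called 68 of 100 probes changed by 1.5 and 30 of 100 changed by 0.75 on the log2 scale, and 7 of 13224 unchanged ones. The simulated noise was normal and independent between probes and arrays, without slide effects or slopes by brightness or composition. These counts therefore do not measure false calls where such effects are present. The number of arrays limits the precision. A fold given as "at least" sets the mean of the bright group against the mean, per array, of the higher of the dim probe's signal and the lowest signal well above background.

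Gene symbols came from the array files and from RefSeq's gene table (assembly ARS-UI_Ramb_v3.0, names only), by transcript for 703 probes, symbol for 500, gene number for 125 and older symbol for 17. Of all probes 1534 carry a symbol and 13474 do not. Genes and lists were chosen with earlier results of these data known. Named were the 3 largest changes and ranks 11 to 30 in each direction among called genes, the 5 lowest p-values of each list, the peptide genes and TTR. Outside that rule, after their values were seen, FLT1, TIE1, PECAM1, GRM2, GRM6, GRM7, HOMER, IKBKB, RPL32, FHL1 and RPA1 were added. Alternatives covered background correction (normexp, offset 50), scaling, the filter, the authors' table, all 13 arrays, the replicate number and the slide as blocks, and each array left out. Maternal vehicle 3 was left out because its signal equals a weighted mean of the other maternal vehicle arrays (weights 0.6 and 0.4) at all 15744 spots. Some called genes are not reported here.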

Additional observations from a re-analysis of the deposited data

Results flagged for a closer look

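In 14 of 220 groups of 4 arrays, 1 array stood apart from the other members of its group by more than Dixon's 95% limit on the gap over the range. Chance gives about 1 such group in 20. The arrays concerned were spread, with 1 to 3 flags on each array.

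Among receptors, FLT1 was at −3.18 on triclosan 1 and at −4.78 to −4.55 on the other triclosan arrays, and GRM6 was at −4.73 on triclosan 3 against −5.30 to −5.21. GRM2 was at −4.30 on vehicle 3 against −6.54 to −6.24, and GRM7 at −4.56 on vehicle 4 against −5.11 to −5.03. TNFRSF1A was at −5.79 on triclosan 2 against −5.14 to −5.05, and ITGAM at −5.70 on the same array against −4.89 to −4.73.

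Among signalling and transcription genes, MYD88 was at −3.71 on vehicle 1 against −3.41 to −3.35, SMAD1 at −4.95 on triclosan 1 against −5.56 to −5.48, and JUND at −2.14 on triclosan 2 against −1.17 to −1.07. On vehicle 2, SHH was at −7.60 against −6.73 to −6.68 and PTCH1 at −3.12 against −4.36 to −4.23. ATP5MC2 was at 4.80 on vehicle 1 against 4.53 to 4.54, EIF4G1 at −1.97 on triclosan 3 against −3.14 to −3.00, and H2AZ1 at 3.66 on triclosan 4 against 3.25 to 3.30.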

How the results depend on the processing

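Where a count below moved by over 1.5 times, the cause was not tested. Normexp correction called 771 probes and 52 genes higher. Median scaling called 1343 probes higher, 599 lower and 78 genes higher. Quantile normalization called 688 probes (224 higher, 464 lower) and 35 genes (8 higher, 27 lower), and the values deposited by the authors gave 899 called probes, 592 of them lower, and 43 called genes, 12 of them higher. Without a filter on dim probes 19 genes were higher. All 13 arrays in 1 fit called 2560 probes (935 higher, 1625 lower) and 132 genes (54 higher, 78 lower). Centring within G and C classes, chosen after seeing the data, called 896 probes and 63 genes higher and 400 probes and 21 genes lower. Leaving out 1 array gave 2 to 1861 probes (0 to 590 higher, 2 to 1271 lower) and 0 to 93 genes (0 to 32 higher, 0 to 61 lower); 1608 and 1861 probes were called without triclosan 3 and triclosan 4. PAPPA and MC5R turned to 0.04 with normexp correction and RPS27A to −0.06 with quantile normalization. No other called gene changed sign. Of 73 called genes, 61 kept the call with normexp correction, 59 with median scaling, 32 with quantile normalization, 33 in the authors' table, 55 without the filter, 44 with the slide block and 42 after G and C centring. All 73 kept it with 13 arrays, and so did the 66 of them that were well above background on all 8.

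Same-numbered arrays had correlated deviations of r = 0.134, 0.133, 0.276 and −0.183. The first 3 pairs also share a slide, the fourth does not, and no label ties the numbers to a shared litter or day. With 1 of the 4 pairs below 0.1, the numbers were not taken as pairing the samples. With the replicate number as a block 230 probes (21 higher, 209 lower) and 12 genes (2 higher, 10 lower) were called, 10 of them among the 73. Triclosan 1, 2 and 3 each correlated best with their own number and triclosan 4 with vehicle 2 (r = 0.185). The number of arrays and, for dim probes, the background limit these values.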

Other observations

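Some gene groups a reader might look for after triclosan moved little or could not be called. Of 7 genes of the xenobiotic response, limma called 0 at the adjusted threshold (median −0.29, or 0.16 with the slide as a block). At an unadjusted p below 0.05 was 1 of them, beside 213 of all 850 named genes (25.1%). That gene was ARNT2, the neural partner of the aryl hydrocarbon receptor, with levels of −4.87 to −4.78 in vehicle and −6.13 to −5.09 in triclosan (difference −0.77, SE 0.22, adjusted p = 0.0576; −0.17 with normexp correction). Of 4 thyroid axis genes 0 were called and 0 had an unadjusted p below 0.05.

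Of 8 Wnt, Notch and hedgehog genes, 0 were called (median −0.34, or 0.01 with normexp correction). At an unadjusted p below 0.05, 4 of them were lower, beside 123 of all 850 named genes. SHH, the ventral patterning signal, was well above background on 3 of 4 vehicle arrays and 0 of 4 triclosan arrays. It passed the filter only through the vehicle arrays and was not called (adjusted p = 0.09). PTCH1, its receptor, had −0.75 (SE 0.31, adjusted p = 0.156). Of 15 reproductive peptides and receptors, 0 were called, with a median of 0.37. At an unadjusted p below 0.05, 2 of them were higher, beside 90 of all 850 named genes. These were TAC1, the substance P precursor (0.37, SE 0.14, adjusted p = 0.11), and OXTR, the oxytocin receptor (0.57, SE 0.22, adjusted p = 0.131), which was called with normexp correction, median scaling and quantile normalization. The other OXTR probe, also well above background on every array of both groups, had −0.01 (SE 0.28, adjusted p = 0.984).

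Markers of other tissues were measured in both groups. The summed level of 4 meningeal and matrix genes was 5.27 to 5.96 in vehicle and 5.86 to 6.24 in triclosan, that of 3 skeletal muscle genes −3.24 to −2.67 and −3.91 to −3.02, that of 3 liver genes 5.02 to 5.57 and 4.44 to 6.17, and that of 5 astrocyte genes 6.14 to 6.43 and 6.20 to 6.72. Their part in the results was not tested.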
